A study of Mus musculus with 2 samples.

Results

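The BCL2 family of apoptosis regulators was examined in CE1-4 cells, a line of mouse prostate cancer, through 10 genes chosen by symbol: the anti-apoptotic genes Bcl2, Bcl2l1 and Mcl1, the effector genes Bax and Bak1, and the BH3-only genes Bcl2l11, Bid, Bad, Pmaip1 and Bbc3. All 10 were found among the 23420 gene symbols of the count table. Stranded total RNA was sequenced from 1 library of cells given prostaglandin E2 (PGE2) for 6 h and 1 library of untreated cells. The labels give no genotype, no PGE2 dose, no vehicle and no culture time for the untreated cells, so an effect of PGE2, of a vehicle and of time in culture cannot be told apart. The comparison asked of the libraries was how transcript levels differ with PGE2, the lipid mediator made through COX-2, which the series title places in tumor-stromal signaling. Neither group had a replicate. Every interval below therefore covers counting error only, no p-value was computed, and each ratio compares a pair of libraries.

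Proteins of the BCL2 family decide whether the outer mitochondrial membrane stays intact. The effectors BAX and BAK form pores in that membrane, which release cytochrome c and start the caspase cascade. The anti-apoptotic proteins hold the effectors in check, and BH3-only proteins, which respond to stress, bind the anti-apoptotic proteins or activate the effectors directly. Several anti-apoptotic members support the survival of prostate cancer cells. Much of this control acts on the proteins, through binding, phosphorylation, cleavage and turnover, none of which a transcript count shows.

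The library of PGE2-treated cells held 17582808 counts and that of untreated cells 16908429. Both libraries had the epithelial keratin gene Krt8 at 1276 CPM (counts scaled to a common depth) with PGE2 and 1256 CPM without, and the mesenchymal gene Vim at 2096 CPM with PGE2 and 2029.6 CPM without. The epithelial adhesion gene Epcam was low, at 25 counts with PGE2 and 31 untreated, while Cdh1, encoding E-cadherin, had 2534 with PGE2 and 2287 untreated. Of the basal genes, Krt14 had 279 counts with PGE2 and 225 untreated, Trp63 7 with PGE2 and 6 untreated, and Krt5 2 with PGE2 and 0 untreated. The fibroblast genes Col1a1 (76 counts with PGE2 and 83 untreated) and Pdgfra (74 with PGE2 and 92 untreated) were detected at a low level. The prostate luminal gene Pbsn had 0 counts in both libraries, which allows up to 0.170 CPM with PGE2 and 0.178 CPM untreated, taken as 3 counts. Hoxb13, a prostate transcription factor gene, had 268 counts with PGE2 and 267 untreated. The leukocyte gene Ptprc had 1 count with PGE2 and 0 untreated, and the endothelial gene Pecam1 3 with PGE2 and 0 untreated, so these leukocyte and endothelial markers were at or near 0.

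None of the 10 members differed between the libraries beyond counting error, and 9 of them lay within a narrow band around equality. Genes were compared where either library held 1 CPM or more, which left 11387 genes and all 10 members. No member passed the rule of a 2-fold or larger ratio with an interval that excluded 1, which 0.316% of the compared genes passed, 0.0527% as higher and 0.263% as lower. No member had an interval that excluded 1 at any ratio, which 12.3% of the compared genes had, 6.61% above 1 and 5.65% below 1. The log2 ratios of PGE2 over untreated CPM ran from -0.11 to 0.74, with a median of 0.016 over the members and -0.0015 over all compared genes. Without Bbc3 the highest was 0.073. In bulk RNA of this kind, fewer cells with a transcript and less of it per cell cannot be told apart. For 9 members the interval lay wholly within 1.3-fold of equality on either side, as it did for 64.8% of the compared genes. How often an interval excludes 1 depends on abundance: 3.84% of the genes with combined counts within 1.5-fold of those of Bbc3 had such an interval, and 31.9% of those near Mcl1.

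**Figure D1:**
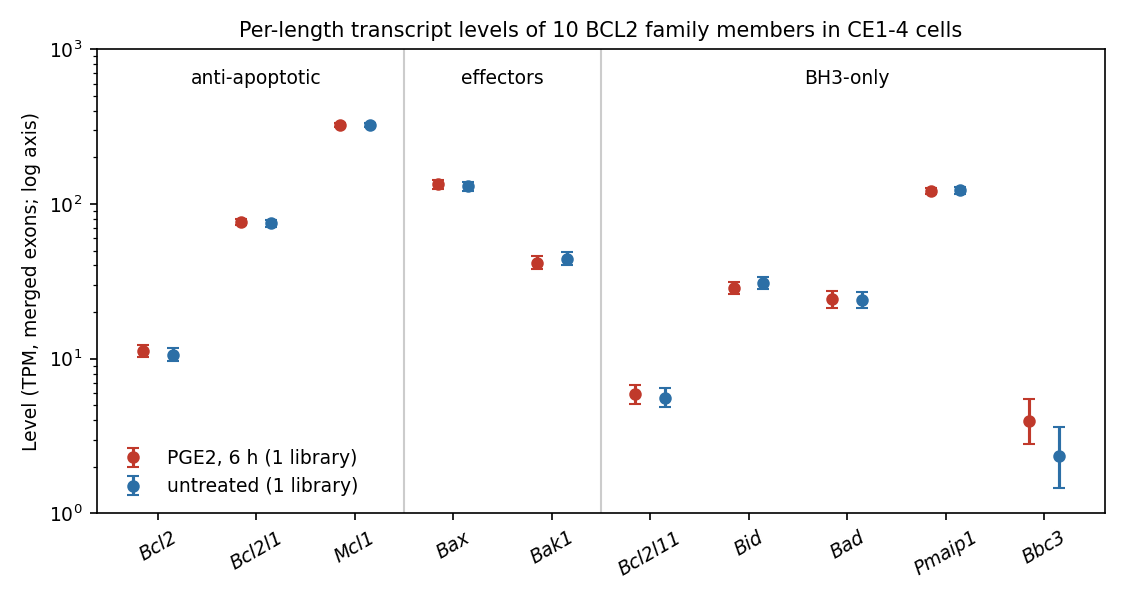
Transcript levels of the 10 members in TPM (vertical axis, logarithmic) in the library of PGE2-treated cells (red, left) and of untreated cells (blue, right), with exact Poisson 95% intervals. Mcl1 is highest at 322.1 TPM with PGE2 and 324 TPM untreated and Bbc3 lowest at 3.97 TPM with PGE2 and 2.35 TPM untreated, and the intervals of the libraries overlap for every member.

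Levels of different genes were compared per length, in TPM, which scale counts by the merged exon length of each gene and by depth. The order of the 10 members was the same in both libraries. Mcl1 stood first, then Bax, Pmaip1, Bcl2l1, Bak1, Bid, Bad, Bcl2, Bcl2l11 and Bbc3. Among neighbours in that order, the Poisson intervals of Bax and Pmaip1 overlapped in both libraries, and those of Bid and Bad, and of Bcl2l11 and Bbc3, overlapped in the PGE2 library. Mcl1 lay above 97.6% of all genes with a length in each library, and Bbc3 above 57.5% with PGE2 and 54.1% untreated. Those genes include many with 0 counts, and 11387 of the 23420 symbols reached 1 CPM. Bbc3 lay near that minimum, at 2.10 CPM with PGE2 and 1.25 CPM untreated. The order rests in part on the lengths used: over the longest transcript of each gene, Bcl2l1 (100.8 TPM with PGE2 and 98.9 TPM untreated) stood above Pmaip1 (89.5 TPM with PGE2 and 90.4 TPM untreated), and Bid above Bak1.

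Of the anti-apoptotic genes, Mcl1 was the dominant transcript. Mcl1 encodes a short-lived survival protein and lies on chromosome 3 from 95658788 to 95663176 (plus strand, GRCm38). It had 4831 counts in PGE2-treated cells and 4648 in untreated cells, or 274 CPM with PGE2 and 276 CPM untreated. The log2 ratio was -0.0086 (-0.067 to 0.050), the tightest interval of the 10 members, and the libraries were level for this gene. It held 78.6% of the anti-apoptotic TPM with PGE2 and 79.0% untreated.

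Bcl2l1 encodes BCL-XL, a survival protein of the outer mitochondrial membrane, and by alternative splicing the pro-apoptotic BCL-XS, which counts per gene do not separate. It lies on chromosome 2 from 152780668 to 152831728 on the minus strand. Bcl2l1 had 1541 counts with PGE2 and 1449 untreated, which is 76.6 TPM with PGE2 and 75.2 TPM untreated. Its log2 ratio was 0.025 (-0.080 to 0.13).

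Bcl2, the founding member, encodes an anti-apoptotic protein first found at a translocation in human lymphoma, and lies on chromosome 1 from 106538178 to 106714274 on the minus strand. It was scarce among the survival genes, with 450 counts in PGE2-treated cells and 409 in untreated cells, or 11.2 TPM with PGE2 and 10.6 TPM untreated. Its log2 ratio of 0.073 (-0.12 to 0.27) was the highest of the 3 anti-apoptotic genes, and its interval included 1. Mcl1 stood 28.8-fold above Bcl2 per length in the PGE2 library and 30.4-fold in the untreated library, or 22.6-fold with PGE2 and 23.9-fold untreated over the longest transcripts. Mcl1 stood 4.21-fold above Bcl2l1 with PGE2 and 4.30-fold untreated, or 2.36-fold with PGE2 and 2.41-fold untreated over the longest transcripts.

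Both effector genes were expressed, Bax above Bak1. Bax, on chromosome 7 from 45461697 to 45466898 (minus strand), encodes a pore former that moves from the cytosol to mitochondria. It had 928 counts with PGE2 and 859 untreated, or 134 TPM with PGE2 and 130 TPM untreated, and a log2 ratio of 0.047 (-0.088 to 0.18). Bak1, on chromosome 17 from 27019810 to 27029009 (minus strand), encodes the pore former that resides on mitochondria. It had 440 counts with PGE2 and 448 untreated, or 41.7 TPM with PGE2 and 44.3 TPM untreated, and a log2 ratio of -0.090 (-0.28 to 0.10). The 2 effectors lay on opposite sides of equality, each within its counting error. Bax stood 3.22-fold above Bak1 per length in PGE2-treated cells and 2.93-fold in untreated cells. With the longest transcripts as lengths, Bax stood 4.58-fold above Bak1 with PGE2 and 4.16-fold untreated.

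Among the BH3-only genes, Pmaip1 was the most abundant. Pmaip1 encodes NOXA, which binds MCL1 and favours its degradation, and its gene spans 66458533 to 66465565 of chromosome 18 (plus strand). It had 1454 counts in PGE2-treated cells and 1406 in untreated cells, or 121 TPM with PGE2 and 122.5 TPM untreated, and a log2 ratio of -0.016 (-0.12 to 0.091). It held 66.0% of the BH3-only TPM with PGE2 and 66.1% untreated. Its per-length level was 30.6-fold that of Bbc3 in the PGE2 library and 52.1-fold in the untreated library. Over the longest transcripts these were 26.1-fold with PGE2 and 44.5-fold untreated. The difference between the libraries rests on 37 counts of Bbc3 with PGE2 and 21 untreated, a ratio whose interval included 1. Pmaip1 and Bbc3 are known targets of p53.

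Bid and Bad were at middle levels. Bid, whose protein is cleaved by caspase-8 and so links death receptors to mitochondria, lies on chromosome 6 from 120891930 to 120916853 on the minus strand. It had 446 counts with PGE2 and 460 untreated, or 28.6 TPM with PGE2 and 30.8 TPM untreated. Its log2 ratio was the lowest of the 10 members at -0.11 (-0.30 to 0.082). Bad encodes a BH3-only protein held in the cytosol by phosphorylation and 14-3-3 proteins, and its gene spans 6941861 to 6951899 of chromosome 19 (plus strand). It had 271 counts with PGE2 and 258 untreated, or 24.1 TPM with PGE2 and 24.0 TPM untreated, and a log2 ratio of 0.0065 (-0.24 to 0.26).

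Bcl2l11 and Bbc3, whose proteins bind all the main anti-apoptotic members, were the scarcest of the 10 members. Bcl2l11 encodes BIM, a sensor of growth factor loss, and its gene spans 128126038 to 128162547 of chromosome 2 (plus strand). It had 207 counts with PGE2 and 189 untreated, or 5.88 TPM with PGE2 and 5.60 TPM untreated, and a log2 ratio of 0.067 (-0.22 to 0.36). Its interval left room for a difference of up to 1.28-fold.

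Bbc3 was the 1 member with a ratio beyond 1.5-fold, and the 1 whose data could not exclude a 2-fold difference. Bbc3 encodes PUMA, a target of p53, and its gene spans 16308393 to 16318205 of chromosome 7 (plus strand). It had 37 counts in PGE2-treated cells and 21 in untreated cells, or 2.10 CPM (1.48 to 2.89) with PGE2 and 1.25 CPM (0.771 to 1.90) untreated, a difference of 16 counts. The log2 ratio was 0.74 (-0.057 to 1.60), a 1.67-fold higher value whose interval ran from 0.961 to 3.03. Among the 834 compared genes with combined counts within 1.5-fold of those of Bbc3, the central 95% of log2 ratios lay between -0.84 and 0.72 with an SD of 0.39, and 6.35% lay farther from 0 than Bbc3. After subtraction of a trend of the ratio on abundance the log2 ratio was 0.80 and the interval (0.0089 to 1.67) no longer included 0.

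**Figure D2:**
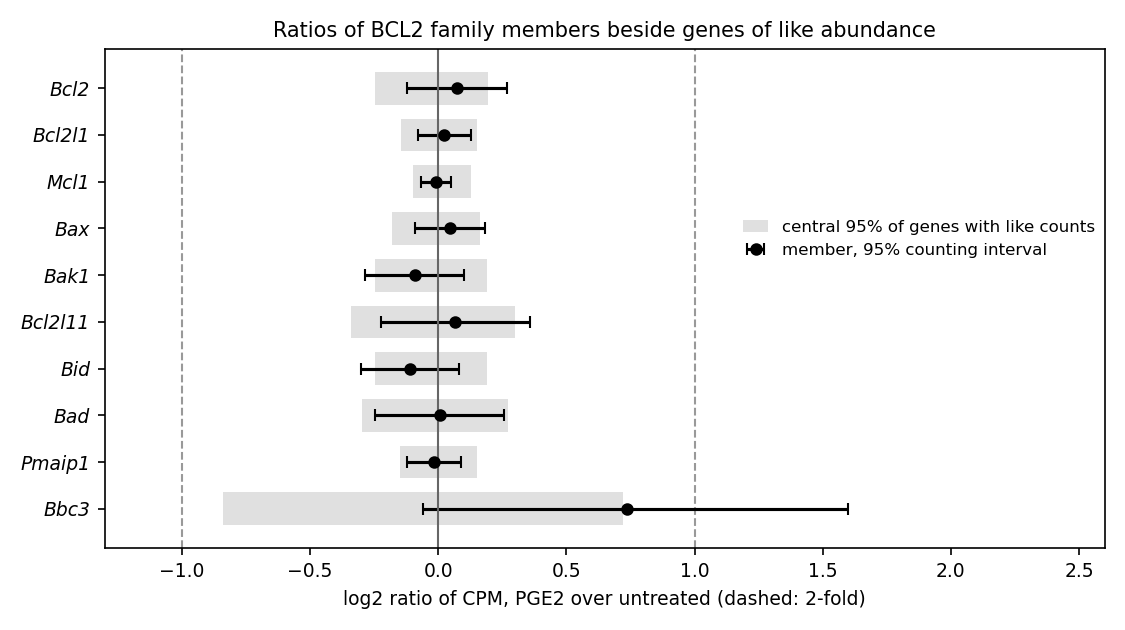
Log2 ratios of CPM, PGE2 over untreated (horizontal axis), for the 10 members (points, 95% counting intervals as bars). Grey bands give the central 95% of genes whose combined counts lay within 1.5-fold of the member's. The points of 9 members lie between -0.11 and 0.073 within their bands, and Bbc3 at 0.74 lies just past the upper end of its band at 0.72.

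Each of the other 9 members lay inside the central 95% of genes of like abundance. For Mcl1 that range ran from -0.097 to 0.13 over 730 genes, and 90.3% of these lay farther from 0 than Mcl1. For Pmaip1 82.6% of 1907 genes lay farther from 0, and for Bad 96.3% of 1994. Bid, with the lowest ratio, had 30.7% of 2200 genes farther from 0 than itself, and Bak1 40.5% of 2188.

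**Figure D3:**
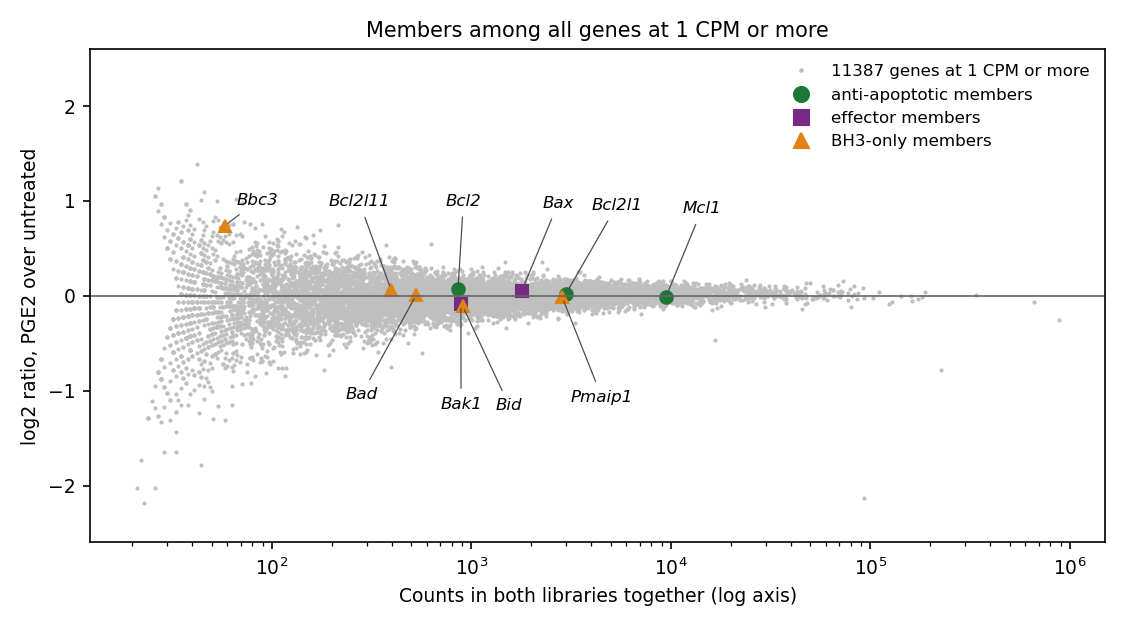
Log2 ratio of PGE2 over untreated (vertical axis) against counts in both libraries together (horizontal axis, logarithmic) for the 11387 compared genes (grey), with the members marked by class. The cloud narrows as counts rise, and 9 members lie near 0 while Bbc3, at 58 combined counts, lies at 0.74 in the wide part of the cloud.

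The balance between the classes showed no difference between the libraries that could be told from counting error. Summed per length, the 3 anti-apoptotic genes gave 53.3% of the TPM of the 10 members in each library. The effectors gave 22.8% with PGE2 and 22.6% untreated, and the BH3-only genes 23.9% with PGE2 and 24.1% untreated. The ratio of anti-apoptotic to pro-apoptotic sums was 1.139 with PGE2 and 1.140 untreated, a log2 change of -0.00039 (-0.086 to 0.085, from Poisson errors by the delta method). In plain counts the ratio was 1.80 with PGE2 and 1.79 untreated, and over the longest transcripts 1.046 with PGE2 and 1.047 untreated. These sums weigh heavily on Mcl1, and without it the per-length ratio was 0.244 in PGE2-treated cells and 0.239 in untreated cells, a log2 change of 0.031 (-0.086 to 0.15).

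Count ratios between genes whose proteins are known to bind each other do not depend on the scaling of the libraries. Of 13 such pairs, chosen after the values of the members had been seen, each had a change whose exact conditional 95% interval included 0. MCL1 and NOXA form a classical pair, and the count of Mcl1 was 3.32 times that of Pmaip1 with PGE2 and 3.31 times untreated, a log2 change of 0.0073 (-0.11 to 0.13). The count ratio of Bcl2l1 to Bax was 1.66 with PGE2 and 1.69 untreated (log2 change -0.023, -0.19 to 0.15), and that of Bcl2l1 to Bak1 was 3.50 with PGE2 and 3.23 untreated (0.11, -0.11 to 0.34). That of Bcl2 to Bcl2l11 was 2.17 with PGE2 and 2.16 untreated (0.0066, -0.35 to 0.36). Over the 10 pairs without Bbc3 the log2 changes lay between -0.076 and 0.11. Of the 13 pairs the widest shift was in the count ratio of Mcl1 to Bbc3, 130.6 with PGE2 and 221 untreated, a log2 change of -0.76 (-1.61 to 0.051), and it rests on the 37 counts of Bbc3 with PGE2 and its 21 untreated.

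PGE2 receptors that couple to the stimulatory G protein raise cAMP, and the transcription factor CREB then binds the cAMP response element TGACGTCA or its core TGACG. Both words were searched on either strand in RefSeq promoter windows of 300 bases (250 before to 50 after a start, GRCm38.p6), where each match of the longer word also holds the core. Windows were matched for 9 members, without Pmaip1, and numbered 15 in all. The word TGACGTCA was in 0 of these 15 windows and in 1.79% of all 32851 windows. The core was in 3 of the 15 windows and in 20.8% of all windows. Counted by gene, it was in 3 of the 9 members and in 23.0% of all 27025 symbols with a window. All 3 matches are shown, and they fall in Bcl2, Mcl1 and Bbc3. Each line gives 25 bases on the strand of the gene, with the core, or its reverse complement CGTCA, in capitals.
Bcl2: gaatgaacggTGACGtacgtacagg
Mcl1: tcctcgcctgCGTCAgcacggccct
Bbc3: ggggccctggCGTCAcgcgggggcg
The stretch of Bcl2 is chr1:106714383-106714407 on the minus strand, with the core 107 bases before the start. That of Mcl1 is chr3:95658727-95658751 on the plus strand, 16 bases after the start, and that of Bbc3 is chr7:16309518-16309542 on the plus strand, 55 bases before 1 of its 3 listed starts. These are RefSeq starts, which differ from the ends of the gene spans given above from GENCODE M21. The stretch of Mcl1 lies before its span, which begins at 95658788, and that of Bbc3 lies inside its span, which begins at 16308393. The log2 ratios of PGE2 over untreated were 0.073 for Bcl2, -0.0086 for Mcl1 and 0.74 for Bbc3, each with an interval that included 0, and the matches are a description of letters, not of binding.

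Exons of some members overlap those of neighbours, and reads there may have been assigned to either gene or to neither. The strand setting of the counting is not given in the sources used here. In GENCODE M21 the exons of Bid overlap those of Bcl2l13 by 628 bases on the opposite strand, those of Bad overlap Gpr137 by 524 bases, and those of Bcl2 overlap the antisense gene D630008O14Rik by 558 bases. The exons of Bax share 192 bases with Gm45808, a protein-coding gene on the same strand, which no strand setting separates. Neither Gm45808 nor D630008O14Rik had a row under that symbol in the count table. Bcl2l13 had 583 counts with PGE2 and 623 untreated (log2 ratio -0.16, -0.33 to 0.0053), on the same side as Bid. Gpr137 had 253 counts with PGE2 and 217 untreated (0.16, -0.11 to 0.43), comparable in number to Bad. Ggnbp1, which overlaps Bak1, had 2 counts with PGE2 and 6 untreated. The part of such overlaps in the counts of Bid, Bad, Bcl2, Bak1 and Bax was not tested.

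Among close relatives of the members, 1 of 6 other anti-apoptotic genes and 1 of 4 other pro-apoptotic genes reached 1 CPM. Bcl2l2, encoding the survival protein BCL-W, had 823 counts with PGE2 and 843 untreated, or 42.0 TPM with PGE2 and 45.0 TPM untreated, and a log2 ratio of -0.099 (-0.24 to 0.041). The 4 near-identical Bcl2a1 genes (Bcl2a1a, Bcl2a1b, Bcl2a1c and Bcl2a1d), a survival family of blood cells, had 0 counts in both libraries, and how reads shared by such copies were assigned is not given. Bok, which encodes a relative of BAX and BAK, had 406 counts with PGE2 and 444 untreated, or 50.3 TPM with PGE2 and 57.4 TPM untreated (log2 ratio -0.19, -0.39 to 0.0041). The BH3-only gene Hrk had 0 counts in both libraries. Of 7 more distant relatives 5 were compared. Among them Bnip3l, a mitophagy receptor gene, was higher with an interval above 1 (4722 counts with PGE2 and 4267 untreated, log2 ratio 0.082, 0.022 to 0.14). Bnip3l lies among the genes with 3000 to below 10000 combined counts, of which 14.2% had an interval above 1. Bnip3, a related receptor gene, had the largest count of that list, 6032 with PGE2 and 5671 untreated, and a log2 ratio of 0.025 (-0.028 to 0.077).

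Over 11 lists of relatives, partners and regulators of the family, 73 of 89 genes were compared and 0 passed the 2-fold rule. An interval above 1 was found for 10 of them (13.7%) and below 1 for 5 (6.85%), against 6.61% and 5.65% of all compared genes, shares that are not matched on abundance. The median log2 ratio was 0.014, and the values ran from -0.43 to 0.25. Of the 15 genes with such an interval, 9 kept it under each of 4 other scalings and after subtraction of the trends on abundance or on GC content and length, and Vdac1, Vdac3, Cycs, Akt2, Ywhah and Perp lost it under at least 1 of these. The share of genes with such an interval grows with depth. Of all genes with at least 10000 combined counts, 33.4% had an interval above 1 and 12.9% below, and 6 of the 15 listed genes compared there had one on either side (4 above and 2 below). Of all genes with 3000 to below 10000 combined counts, 14.2% had an interval above 1 and 6.47% below, and 5 of the 19 listed genes compared there had one, each above 1.

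The apoptosome, the mitochondrial channels and release factors, and the inhibitors of apoptosis were taken as 3 further lists. All 6 genes of the apoptosome and caspase list had a ratio above 1, a direction that 49.4% of all compared genes had, and each interval included 1. Apaf1, the scaffold of the apoptosome, had 1719 counts with PGE2 and 1594 untreated (log2 ratio 0.045, -0.055 to 0.14). In the list of channels and release factors 7 of 8 genes were compared, 2 with an interval above 1 and 1 below. Of all compared genes 6.61% had an interval above 1 and 5.65% below. Cycs, encoding cytochrome c, had 6894 counts with PGE2 and 6370 untreated (0.050, 0.00042 to 0.099) and Vdac3, a channel gene, 4488 with PGE2 and 4097 untreated (0.067, 0.0058 to 0.13), with intervals above 1. Vdac1 had 7264 counts with PGE2 and 7193 untreated (-0.050, -0.097 to -0.0029), with an interval below 1. Vdac2 had 7876 with PGE2 and 7303 untreated (0.045, -0.0014 to 0.091). Cycs and Vdac1 lie among the genes with at least 10000 combined counts, of which 33.4% had an interval above 1 and 12.9% below. Vdac3 lies among those with 3000 to below 10000, of which 14.2% had an interval above 1. Each of the 5 inhibitor of apoptosis genes had an interval that included 1, among them Birc6 at 6295 counts with PGE2 and 6113 untreated (-0.022, -0.073 to 0.029).

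Upstream, the death receptor arm had 9 of 10 genes compared, with a median log2 ratio of -0.048. Tnfrsf1a, a receptor of tumor necrosis factor, was lower, with 433 counts in PGE2-treated cells and 495 in untreated cells (-0.26, -0.45 to -0.068). It was the 1 compared gene of the list whose interval excluded 1. Of all compared genes 5.65% had an interval below 1. Cflar, which encodes the caspase-8 inhibitor FLIP, had 5256 counts with PGE2 and 5027 untreated (-1.2e-05, -0.056 to 0.056), and the ligand gene Fasl had 0 in both libraries. Among genes that set the stability of the MCL1 protein, Huwe1, a ubiquitin ligase gene, was lower (6851 counts with PGE2 and 6953 untreated, -0.086, -0.13 to -0.037). Of that list 5 of 6 genes were compared, and Huwe1 alone had an interval that excluded 1. It lies among the genes with at least 10000 combined counts, of which 12.9% had an interval below 1. Usp9x, a deubiquitinase gene, had 24257 counts with PGE2 and 22890 untreated (0.019, -0.0067 to 0.046).

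Of the kinases that phosphorylate BAD and the 14-3-3 proteins that bind it, 16 of 17 genes were compared, 4 with an interval above 1 and 1 below, against 6.61% and 5.65% of all compared genes. Pim1, encoding a kinase that phosphorylates BAD, had the highest log2 ratio of the 73 compared genes, with 1136 counts with PGE2 and 913 untreated, or 77.0 TPM with PGE2 and 64.6 TPM untreated (0.25, 0.12 to 0.38). The 14-3-3 genes Ywhaz (37585 counts with PGE2 and 34903 untreated, 0.043, 0.021 to 0.064), Ywhae (9529 with PGE2 and 8718 untreated, 0.064, 0.022 to 0.11) and Ywhah (3213 with PGE2 and 2894 untreated, 0.087, 0.014 to 0.16) were higher by small ratios. Ywhaz and Ywhae lie among the genes with at least 10000 combined counts, of which 33.4% had an interval above 1. Akt2, a kinase gene of the same list, was lower (1104 counts with PGE2 and 1151 untreated, -0.12, -0.24 to -0.0040).

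The p53 gene and other p53 targets were set beside Bbc3, Pmaip1 and Bax. Trp53 had 461 counts with PGE2 and 467 untreated (log2 ratio -0.083, -0.27 to 0.11), and its relative Trp73 had 0 in both libraries. Mdm2, encoding the ligase that degrades p53, had the largest count of its list of transcription regulators, 10196 with PGE2 and 9683 untreated (0.010, -0.030 to 0.050), and each of the 8 compared genes of the list had an interval that included 1. Of the 10 other p53 targets 3 had an interval above 1 and 1 below, against 6.61% and 5.65% of all compared genes. Eda2r, a gene of the tumor necrosis factor receptor family, was higher (4588 counts with PGE2 and 4042 untreated, 0.12, 0.057 to 0.18). So were Perp, a junction gene linked to apoptosis (4923 with PGE2 and 4486 untreated, 0.070, 0.011 to 0.13), and Ccng1, encoding cyclin G (35681 with PGE2 and 33113 untreated, 0.043, 0.022 to 0.065). Ccng1 lies among the genes with at least 10000 combined counts, of which 33.4% had an interval above 1, and Eda2r and Perp among those with 3000 to below 10000, of which 14.2% had one. Zmat3, encoding an RNA-binding protein, was lower (885 counts with PGE2 and 964 untreated, -0.19, -0.32 to -0.054).

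**Figure D4:**
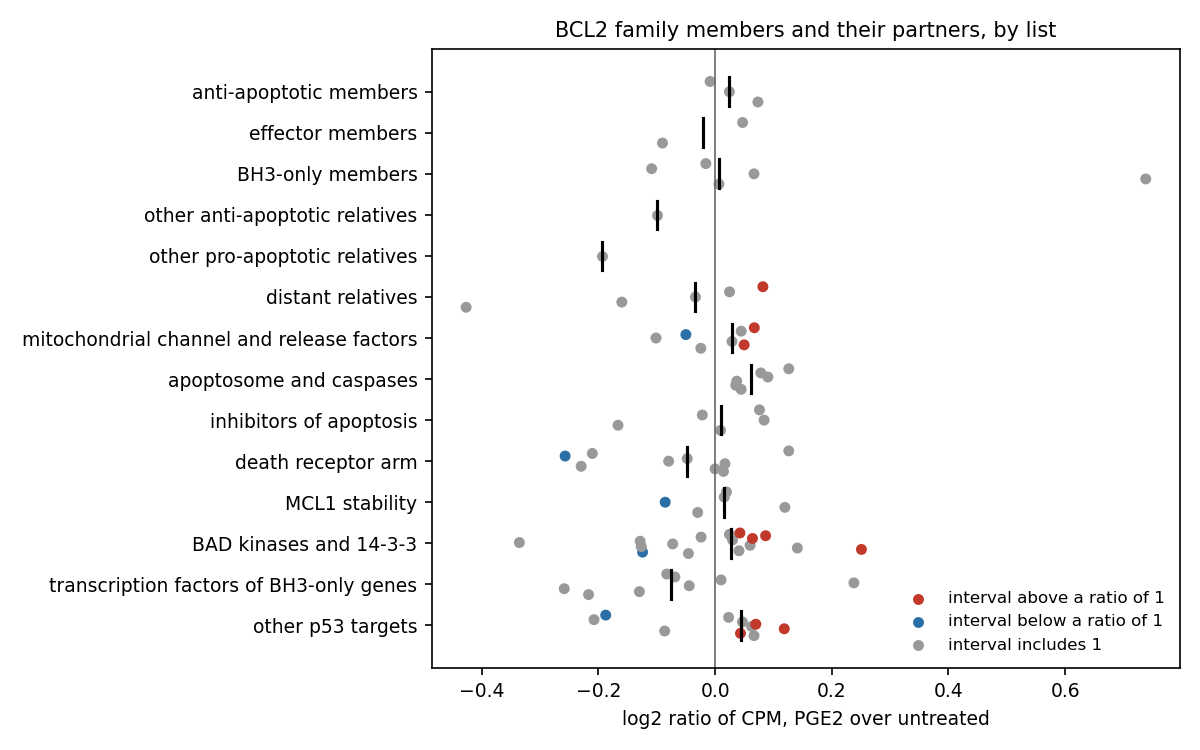
Log2 ratios of CPM, PGE2 over untreated (horizontal axis), for each compared gene of the member classes and of 11 lists of relatives and partners (rows). Red points have an interval above a ratio of 1, blue points below 1 and grey points include 1, and black bars mark medians. All 10 members are grey, and the other genes lie between -0.43 and 0.25.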

How the data were processed

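Libraries were made from column-purified total RNA with a stranded total RNA kit, per the labels' protocols. Trimmomatic, TopHat2, Bowtie, HTSeq and the build mm10 are named in the submitters' processing notes, without versions, annotation or strand setting. The authors deposited raw counts per gene symbol, not normalized, in 1 column per library, each named as its sample. Counts were scaled by TMM in edgeR 4.0.16 (R 4.3.3; factors 1.003 with PGE2 and 0.997 untreated), so that 1 CPM stood for 17.6 counts with PGE2 and 16.9 untreated. Log2 ratios used a prior of 0.5 counts and 95% Clopper-Pearson intervals. CPM and TPM have exact Poisson intervals. TPM used merged exons of GENCODE M21 (GRCm38), matched by symbol for 21785 rows with 96.4% of the counts with PGE2 and 96.1% untreated. With 1 library per group no test was run. Members and lists were chosen with earlier results of these data known. Other genes were named where their interval excluded 1, where they had the largest count of a list, or 0 counts in both libraries; Trp53 and Pim1 fall outside this rule (at most 4 genes of a list whose interval excluded 1, largest count first) and were named after their values were seen. Cell type markers were named apart from this rule, some are not reported here, and the binding pairs, overlap partners and promoter words were chosen after values were seen. Alternatives covered scaling (DESeq2 1.42.0 size factors among them), prior, minimum, interval level, fold, trends and lengths.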

Additional observations from a re-analysis of the deposited data

How the results depend on the processing

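No replicate could be left out, and no paired analysis was possible because each group is 1 library. Over 8 alternatives for each member, all 80 ratios stayed within the member's counting interval, but the 10 with a 99% interval could not move, which leaves 70. The 4 other scalings shift all members by the same amount, too little to leave any interval, so their outcome was fixed as well. Under them Mcl1, with the tightest interval (-0.067 to 0.050), went from -0.0086 to between -0.017 and -0.00071. The sign of a ratio near 0 turned in 2 of the 70: Mcl1 after subtraction of the GC and length trend (0.0045) and Bad when Rn45s, Lars2 and Malat1 were left out of the totals (-0.0024). The count of members whose interval excluded 1 was 0, and became 1 after subtraction of the abundance trend, where Bbc3 passed. All 26 class values stayed within their intervals, but 4 of them are the anti-apoptotic over pro-apoptotic ratio under another scaling, which cancels in it, which leaves 22. The class value of the anti-apoptotic genes and that ratio, both near 0, changed sign under some of these. For the class sums another scaling is likewise a common shift, too small to leave their intervals. The 36 genes past the 2-fold rule (6 higher, 30 lower) became 16 with a prior of 5 counts, 84 with no minimum, 15 with a 99% interval, 1 where 5 CPM were required and 94 at 1.5-fold. The 1396 genes whose interval excluded 1 (753 higher, 643 lower) became 668 with a 99% interval, and 1307 (852 higher, 455 lower) after subtraction of the GC and length trend. Which direction held more genes turned with the scaling: 908 were higher and 545 lower by total counts, and 628 higher and 786 lower when Rn45s, Lars2 and Malat1 were left out of the totals. Other scalings moved the median of all genes to between -0.010 and 0.0063. The longest transcript moved 12 of 20 member levels out of their Poisson intervals. Depth limits Bbc3 most, at 58 counts in all.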
